A study of Mus musculus with 10 samples.

Results

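The integrated stress response genes examined here are 34 genes: the kinases that start the response, the transcription factor Atf4 with related factors, and genes known as Atf4 targets in amino acid synthesis, amino acid transport and feedback. All 34 were measured, out of 20405 genes on the array. They were chosen by name, with earlier results of these data known. Where a gene had several probe sets, the brightest on average was used. The samples were cortices of mouse embryos at E10.5, when the cortical wall is mostly dividing progenitors. There were 5 wild-type C57BL/6 embryos and 5 embryos with 1 copy of Magoh replaced by the Mos2 allele (Magoh-Mos2 heterozygous), on the same C57BL/6 background, with a cortex pair taken from each embryo and no other treatment in either group. Magoh is a core subunit of the exon junction complex, which marks spliced mRNA. The labels give no litter, sex or array day. Values are log2 RMA levels from Affymetrix whole-transcript arrays, differences are mutant minus wild type on that log2 scale, and spreads are SD over n = 5 arrays.

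In the integrated stress response, kinases phosphorylate the initiation factor eIF2 when amino acids run short, proteins misfold, heme is scarce or double-stranded RNA appears. General translation then slows, while the Atf4 mRNA, whose upstream reading frames otherwise block it, is translated more. Atf4 protein pairs with C/EBP factors and switches on genes that make and import amino acids, and others that shut the response down. In dividing neural progenitors the same genes also serve growth, since synthesis and uptake of amino acids feed protein production. Arrays measure mRNA. Phosphorylation of eIF2 and the amount of Atf4 protein were not measured.

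Magoh mRNA was lower in every mutant. It read 11.07, 11.08, 11.14, 11.06 and 10.90 on the wild-type arrays and 10.31, 10.30, 10.37, 10.17 and 9.92 on the mutant arrays, a difference of -0.84 (SE 0.08, limma adjusted p = 8.48e-05), so the labels and the mutated gene go together. Over all genes 53 rose and 64 fell at a limma adjusted p under 0.05. Arrays carry no read depth. To judge background, 5222 negative-control probe sets were used, and their 95th percentile had a mean of 8.57 across arrays. Of the 34 genes, 20 lay below 8.57 in both genotypes, as did 14840 of all 20405 genes. For such genes the size of a difference is approximate. Mutant arrays 1 and 5 lay farthest from the other arrays, with SDs of their deviations from the genotype mean of 0.20 and 0.15 over all genes, against 0.09 to 0.14 on the other 8. The main counts below are therefore also given without both. Of 19 genes of cortical progenitors, 15 lay above 8.57 in both genotypes.

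Of the 34 genes, 2 rose in mutant cortex (Atf4 and Asns), 0 fell and 32 did not pass the test (limma, adjusted p under 0.05). Among all genes tested, 0.26% rose and 0.314% fell by that rule. At an unadjusted p under 0.05, 12 members were higher and 1 was lower, against 4.57% and 4.68% of all genes. The difference was above 0 in 26 members, and in 51% of all genes. In 4 members, Atf4, Asns, Slc3a2 and Trib3, all mutant arrays lay above all wild-type arrays, and in 0 members all lay below. Among all genes these shares were 1.43% and 1.39%. The median difference was 0.09 over the members and 0.00 over all genes. As the members were chosen with earlier results of these data known, these comparisons describe the list and are no test of it. Without mutant arrays 1 and 5, the same 2 genes rose and 0 fell, where 253 of all 20405 genes rose and 249 fell. In that setting 9 members were higher and 3 lower before adjustment at p under 0.05 (8.15% and 9.41% of all genes), and the median was 0.09. In whole tissue, fewer cells of a type and less RNA per cell cannot be told apart.

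**Figure D1:**
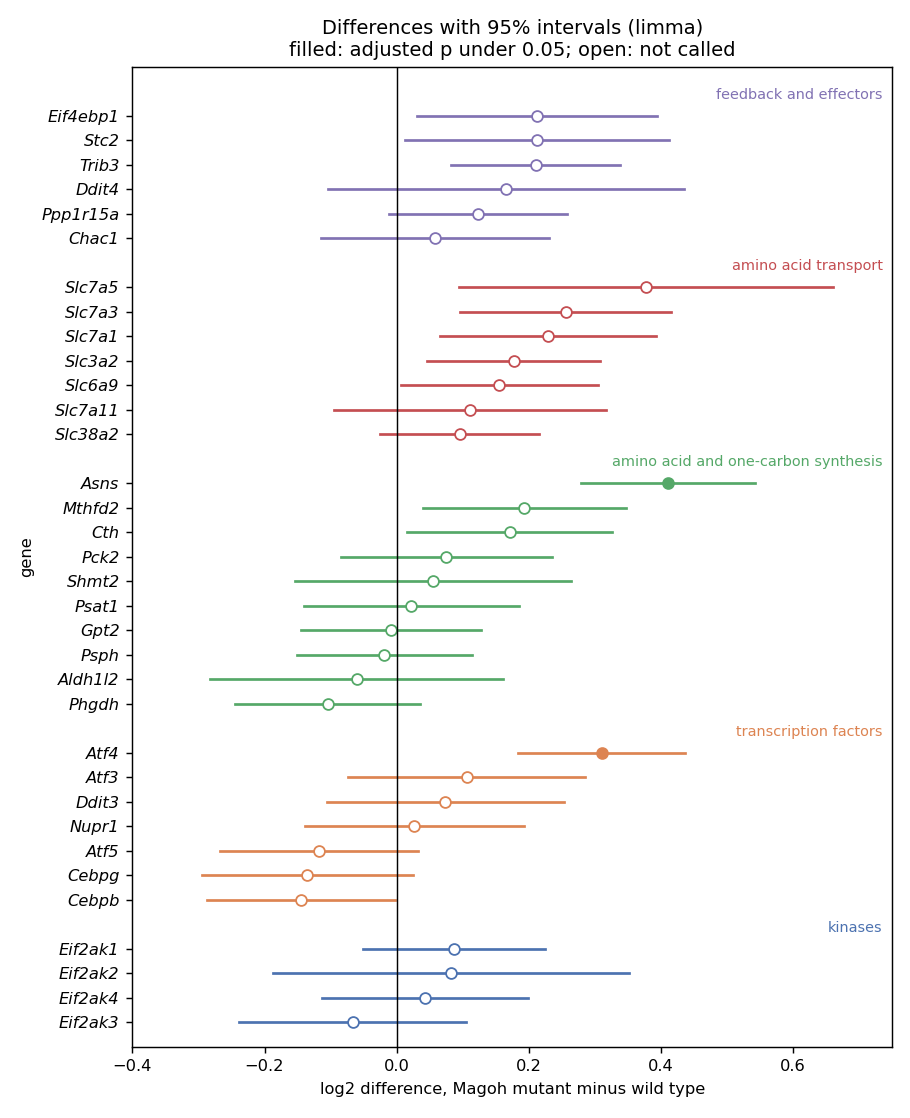
Log2 difference, mutant minus wild type (x axis), of each of the 34 genes (y axis), grouped by role, with the 95% interval from limma as a bar; filled points have an adjusted p under 0.05. Atf4 (0.31) and Asns (0.41) are the filled points, the transport and feedback genes all lie right of 0, and the kinases and the other transcription factors lie on both sides of it.

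Of the 4 kinases that phosphorylate eIF2, 0 passed the test in limma, and 0 had an unadjusted p under 0.05. When mutant arrays 1 and 5 were left out, all 4 differences were above 0 and 1 of 4, Eif2ak2, was higher before adjustment, against 8.15% of all genes. Eif2ak1, which responds to lack of heme, differed by 0.09 with a 95% interval from -0.05 to 0.22. Eif2ak2, which binds double-stranded RNA, differed by 0.08 with an interval from -0.19 to 0.35. Eif2ak3 (PERK), the kinase of the endoplasmic reticulum, differed by -0.07 with an interval from -0.24 to 0.11, and Eif2ak4 (Gcn2), which senses uncharged tRNA, by 0.04 with an interval from -0.11 to 0.20. Their limma adjusted p ranged from 0.766 for Eif2ak1 to 0.917 for Eif2ak4. These intervals leave room for changes up to the bounds named, in either direction.

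The SD was larger in mutants than in wild types for Eif2ak1, Eif2ak2 and Eif2ak3, and not for Eif2ak4. Eif2ak2 spread over 6.88 to 7.24 on the wild-type arrays and over 6.58 to 7.48 on the mutant arrays, lowest on mutant array 1 and highest on mutant array 4. Its difference was 0.22 without the first of these and 0.27 without mutant arrays 1 and 5 (limma adjusted p = 0.112). Eif2ak1 was 9.11 to 9.13 on 4 mutant arrays and 9.33 on mutant array 4, without which its difference was 0.04. That of Eif2ak4 was 0.0006 without the same array. Eif2ak3 was lowest on mutant array 1 (7.49), and its second probe set differed by 0.14 where the one used differed by -0.07, so its sign was not fixed. All but Eif2ak1 lay below 8.57 in both genotypes.

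Atf4 (Entrez 11911), the transcription factor at the centre of the response, rose 1.24-fold. Its wild-type levels were 9.14, 9.13, 9.14, 9.07 and 9.15 and its mutant levels 9.52, 9.37, 9.42, 9.37 and 9.52. The wild-type embryos spanned 0.08, and the lowest mutant array, 9.37, was above all of them. The difference was 0.31 (SE 0.06, 95% interval 0.18 to 0.44, limma adjusted p = 0.0248). It lay at percentile 99.5 of the differences of all genes. The size was steady, at 0.29 to 0.33 with any 1 array left out, while the call was lost without any 1 of the 5 wild-type arrays or without mutant array 3 (limma adjusted p up to 0.0878). Quantile normalization gave an adjusted p of 0.0554 in limma. Without mutant arrays 1 and 5, the 2 highest mutants, Atf4 differed by 0.26 (limma adjusted p = 0.0278).

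The other 6 transcription factors did not pass, and before adjustment Cebpb alone had a p under 0.05 (4.57% of all genes were higher and 4.68% lower). Without mutant arrays 1 and 5, 1 of all 7 factors was higher and 2 were lower before adjustment, against 8.15% and 9.41% of all genes. Cebpg and Cebpb, C/EBP proteins that pair with Atf4 on DNA, had negative differences, of -0.14 (limma adjusted p = 0.634) and -0.14 (limma adjusted p = 0.533). For Cebpb, 4 of 5 mutant arrays (6.88, 7.05, 7.05 and 7.05) lay below the lowest wild-type array of 7.16, and mutant array 5 (7.23) lay inside the wild-type range. For Cebpg 4 of 5 mutant arrays also lay below the lowest wild-type array (8.8036), but arrays 3 and 4 only barely, at 8.7948 and 8.8006. Mutant arrays 1 and 5 read 8.50 and 8.69, and array 2 lay inside the range at 8.85. Without mutant array 1 the difference of Cebpg was -0.08, and without mutant arrays 1 and 5 it was -0.05.

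Atf5, whose mRNA is translated under stress by the same upstream reading frame mechanism as Atf4, differed by -0.12 (limma adjusted p = 0.679), with mutants between 7.77 and 8.12 and wild types between 8.01 and 8.18. Without mutant array 4, its lowest, the difference was -0.06, and without mutant array 1, its highest, it was -0.15. Without mutant arrays 1 and 5 it was -0.17 (limma adjusted p = 0.235). Ddit3 (CHOP), a C/EBP factor that promotes cell death under lasting stress, differed by 0.07, from 6.73 ± 0.16 to 6.81 ± 0.12. Its 95% interval ran from -0.11 to 0.25, and with single arrays left out the difference ran from 0.02 (without wild-type array 4) to 0.12 (without wild-type array 1). Atf3, a factor induced by many stresses, differed by 0.11 and the small nuclear stress protein gene Nupr1 by 0.03, both with overlapping groups. Without mutant array 5 the difference of Atf3 was 0.06. Ddit3, Atf3, Nupr1, Atf5 and Cebpb all lay below 8.57, so a small change in them could be hidden.

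Asns (Entrez 27053), which encodes asparagine synthetase, gave the highest rise among the 34. Its wild-type levels were 10.07, 10.24, 10.12, 10.15 and 10.05 and its mutant levels 10.53, 10.59, 10.57, 10.56 and 10.44. The groups did not overlap, and the mutants spanned 0.15. The difference was 0.41 (SE 0.06, 95% interval 0.28 to 0.54, limma adjusted p = 0.00394), or 1.33-fold. It was called with any 1 array left out, at 0.39 to 0.44 with limma adjusted p up to 0.0186, and it was 0.45 without mutant arrays 1 and 5.

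The promoters of the 2 genes that rose are shown because Atf4 is known to act through a C/EBP-ATF composite element near its targets' start sites. The element was searched as TGATGNAA on both strands of RefSeq windows (GRCm38.p6) from 250 bases before to 50 bases after each start, and capitals mark matches. Each line gives the bases before the start, 5′ to 3′ on the gene's strand: Asns at chr6:7693210-7693459 (minus strand) and Atf4 at chr15:80254934-80255183 (plus strand).
Asns: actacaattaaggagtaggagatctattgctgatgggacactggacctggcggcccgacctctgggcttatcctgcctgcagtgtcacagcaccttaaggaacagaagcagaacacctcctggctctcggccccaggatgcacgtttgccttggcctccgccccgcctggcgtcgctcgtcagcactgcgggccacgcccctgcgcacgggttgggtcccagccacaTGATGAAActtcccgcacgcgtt
Atf4: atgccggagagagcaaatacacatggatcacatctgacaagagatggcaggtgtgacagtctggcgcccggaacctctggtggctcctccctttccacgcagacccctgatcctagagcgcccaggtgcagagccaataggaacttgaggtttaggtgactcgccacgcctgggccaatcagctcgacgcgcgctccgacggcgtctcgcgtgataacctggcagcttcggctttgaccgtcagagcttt
The match in Asns begins 23 bases before the RefSeq start. The Atf4 window holds no match, which says only that these letters are not in this window.

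Windows were found for 29 of the 34 genes, and 7 of the 29 (24.1%) held the element, against 4.51% of all 27025 genes with a window and 3.97% of all 32851 windows. Many members were chosen as known Atf4 targets, so their higher share is no result of these data. The 6 genes beside Asns are shown with the bases around each match, to let the matches be compared with the one in Asns.
Atf3: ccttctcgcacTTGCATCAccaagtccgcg
Chac1: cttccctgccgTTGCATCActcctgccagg
Nupr1: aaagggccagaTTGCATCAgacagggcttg
Pck2: agccttcaaagTTACATCAgtatcttacag
Slc7a11, first match: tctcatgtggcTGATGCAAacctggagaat
Slc7a11, second match: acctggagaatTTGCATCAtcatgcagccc
Trib3: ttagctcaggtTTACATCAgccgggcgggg
In GRCm38.p6 these lie at chr1:191183425-191183454 (Atf3), chr2:119351038-119351067 (Chac1), chr7:126625562-126625591 (Nupr1), chr14:55540152-55540181 (Pck2), chr3:50443661-50443690 and chr3:50443642-50443671 (Slc7a11) and chr2:152344028-152344057 (Trib3), with Chac1 and Pck2 on the plus strand and the others on the minus strand. The matches in Slc7a11 do not overlap, although the stretches shown around them share bases, and the match in Trib3 lies 15 bases after the start. The 7 genes with a match differed by 0.03 (Nupr1) to 0.41 (Asns), with a median of 0.11, and the 22 without had a median of 0.08. A match is a description of the sequence and does not show that Atf4 bound there.

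The other genes of amino acid and folate synthesis did not pass. Mthfd2, a mitochondrial folate enzyme, was 8.79, 8.90, 8.93, 8.95 and 9.02 in wild type and 8.93, 9.18, 9.23, 9.04 and 9.18 in mutants. Only mutant array 1 lay inside the wild-type range, and the difference was 0.19 (limma adjusted p = 0.361). Cth, which makes cysteine from cystathionine, differed by 0.17 (limma adjusted p = 0.476), with mutant arrays 2, 3 and 4 above all wild types. Without mutant arrays 1 and 5 the differences were 0.23 for Mthfd2 and 0.25 for Cth, with limma adjusted p of 0.0965 and 0.083.

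The serine synthesis genes lay around 0. Phgdh, the first enzyme of that pathway, differed by -0.10 from 10.21 ± 0.07, Psat1, the second, by 0.02 from 10.62 ± 0.06, and Psph, the last, by -0.02 from 7.89 ± 0.09. Their limma adjusted p were 0.698, 0.962 and 0.962. Phgdh had a second, dimmer probe set that differed by -0.02. Since the annotation holds a Phgdh pseudogene, the signal of either probe set, also of the one used, can include a copy. Of the mitochondrial enzymes, Shmt2, which splits serine to glycine, differed by 0.05 and ran from 8.89 on mutant array 5 to 9.49 on mutant array 1, wider than the wild-type range of 9.07 to 9.32. The mitochondrial folate enzyme Aldh1l2 differed by -0.06 near the background, the mitochondrial gluconeogenic enzyme Pck2 by 0.08 (0.03 without mutant array 5) and the alanine aminotransferase Gpt2 by -0.01. The rise of Asns was thus not accompanied by a call in any of the other 9 genes of its group.

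All 7 amino acid transport genes were higher in the mutant mean, by 0.095 to 0.38 with a median of 0.18, while 0 of 7 passed the adjusted test. At an unadjusted p under 0.05, 5 of 7 were higher, where 4.57% of all genes were. This was 3 of 7 without mutant arrays 1 and 5, against 8.15% of all genes, and the median was then 0.12. The highest difference was that of Slc7a5, the subunit that carries large neutral amino acids such as leucine. It was 9.61, 9.69, 9.75, 9.77 and 9.89 in wild type and 10.74, 9.88, 9.93, 9.89 and 10.15 in mutants. Mutant array 1 stood well above the next mutant (10.15), and arrays 2 and 4 lay at the top edge of the wild-type range. The difference was 0.38 (95% interval 0.09 to 0.66, limma adjusted p = 0.326), and it fell to 0.22 when mutant array 1 was left out and to 0.16 when array 5 was left out as well.

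Slc3a2, the heavy chain that holds Slc7a5 and Slc7a11 at the membrane, was 10.84, 10.89, 10.90, 10.85 and 10.88 in wild type and 11.18, 10.95, 10.99, 11.05 and 11.09 in mutants. Here too mutant arrays 1 and 5 were highest, but the groups did not overlap. The difference was 0.18 (SE 0.06, limma adjusted p = 0.31), and 0.12 without arrays 1 and 5. Slc7a11, the cystine exchanger that pairs with the same heavy chain, differed by 0.11, and by 0.03 without wild-type array 1, its lowest value at 6.56. It was 0.05 without mutant array 1.

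Slc7a1 and Slc7a3 carry arginine and lysine. Slc7a1 was 8.28 to 8.53 in wild type and 8.48 to 8.78 in mutants, a difference of 0.23 (limma adjusted p = 0.282), and 0.13 without mutant arrays 1 and 5. Slc7a3 differed by 0.26 (limma adjusted p = 0.186), with mutants at 6.52, 6.45, 6.67, 6.39 and 6.67 and 4 of 5 above the highest wild type (6.41), and by 0.22 without mutant arrays 1 and 5. Slc7a3 lay near the background, so its difference is approximate. The glycine transporter Slc6a9 differed by 0.16 (limma adjusted p = 0.513), with mutant arrays 1, 3 and 5 above all wild types. Slc38a2, a carrier of small neutral amino acids such as alanine and glutamine, differed by 0.095, from 11.39 ± 0.03 to 11.49 ± 0.05, with 4 of 5 mutants above all wild types. A second, dimmer probe set of Slc38a2 differed by 0.05.

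**Figure D2:**
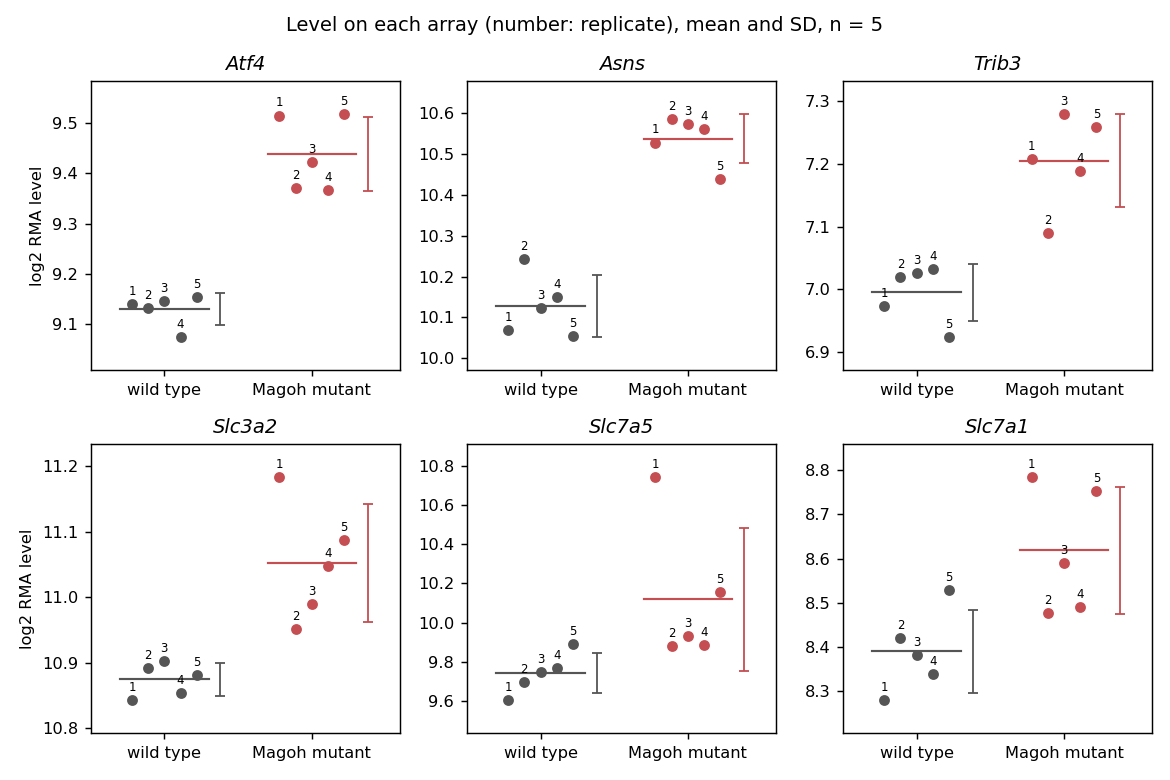
Log2 RMA level (y axis) of 6 genes on each wild-type and mutant array, with the replicate number above each point, the group mean as a line and the SD as a bar (n = 5). The groups do not overlap for Atf4, Asns, Trib3 and Slc3a2, and mutant array 1 is highest for Slc3a2, Slc7a5 (10.74) and Slc7a1.

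The feedback and effector genes were also higher in the mutant mean, 6 of 6, by 0.06 to 0.21 with a median of 0.19, and 0 of 6 passed, with 3 higher before adjustment (p under 0.05), against 4.57% of all genes. By that rule 1 of 6 was higher without mutant arrays 1 and 5, against 8.15% of all genes, with a median of 0.11. Trib3, a pseudokinase that restrains Atf4 activity, was 6.97, 7.02, 7.03, 7.03 and 6.92 in wild type and 7.21, 7.09, 7.28, 7.19 and 7.26 in mutants. Its groups did not overlap. The difference was 0.21 (SE 0.06, limma adjusted p = 0.176), at levels below 8.57, and 0.19 without mutant arrays 1 and 5.

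Eif4ebp1, a brake on cap-dependent translation, differed by 0.21 (limma adjusted p = 0.423), with mutant array 1 at 9.65 and the other mutants at 9.13 to 9.31. The wild types ended at 9.18, so 4 of 5 mutants lay above them, and the difference was 0.13 without arrays 1 and 5. Stc2, a secreted stanniocalcin, differed by 0.21 (limma adjusted p = 0.499), with mutants between 6.79 and 7.34, and by 0.11 without arrays 1 and 5. Ppp1r15a (Gadd34), the phosphatase subunit that reverses the phosphorylation of eIF2, differed by 0.12 (limma adjusted p = 0.59), with mutants at 6.93, 6.84, 6.96, 7.02 and 7.01 and 3 of 5 above the highest wild type (6.95). Ddit4, an inhibitor of mTOR signalling, differed by 0.17 with an SD of 0.23 in wild type and 0.27 in mutants. The difference was within that spread, and it was 0.08 without mutant array 4. Chac1, which degrades glutathione, differed by 0.06 (limma adjusted p = 0.891), and its sign turned to -0.04 without mutant arrays 1 and 5.

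**Figure D3:**
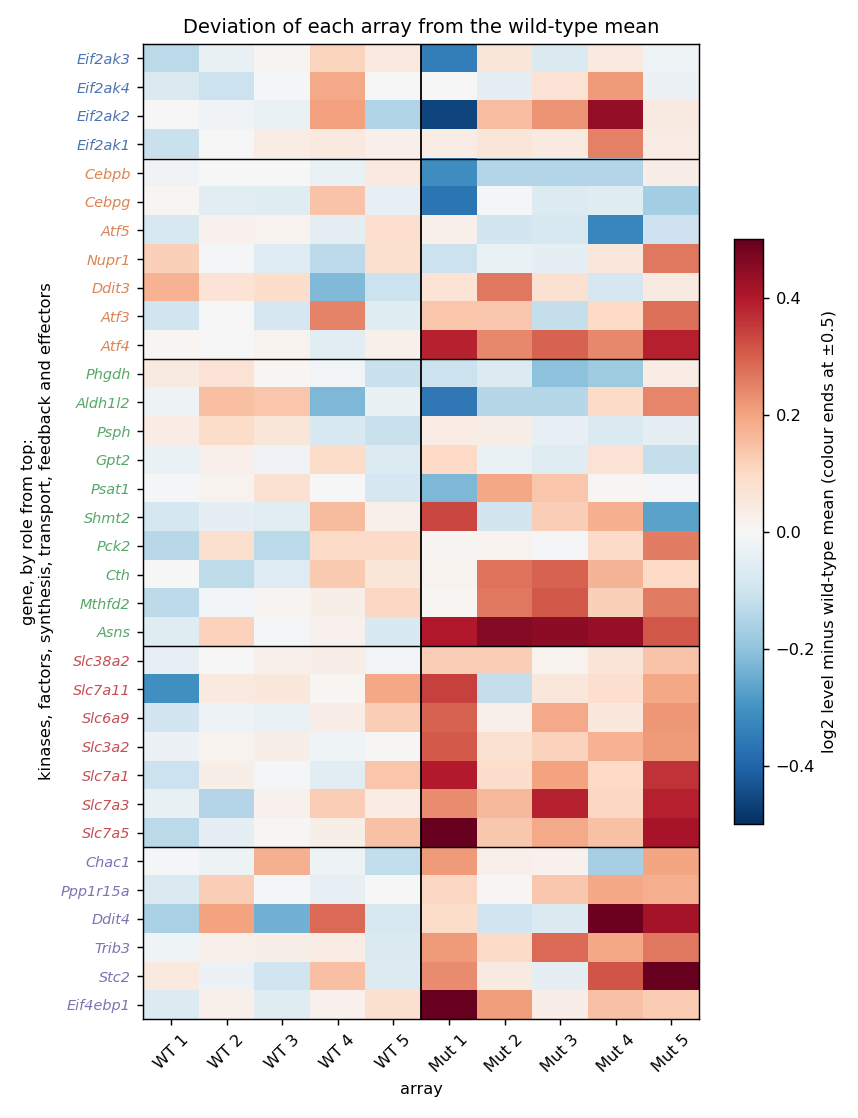
Log2 level of the 34 genes (rows, ordered by role and coloured by it) on the 10 arrays (columns), minus the gene's wild-type mean; red is higher and blue lower. Atf4 and Asns are red on all 5 mutant arrays, the transport medians are highest on mutant arrays 1 and 5, and the kinases and factors other than Atf4 are mixed.

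Across arrays the groups of genes did not follow a common order. The median deviation of the transport genes from their wild-type mean was 0.31, 0.09, 0.19, 0.10 and 0.22 on mutant arrays 1 to 5, against -0.09 to 0.12 on the wild-type arrays, so mutants 2 and 4 lay inside the wild-type range. For the feedback and effector genes it was 0.21, 0.04, 0.03, 0.19 and 0.23, against -0.07 to 0.03 in wild type. For the synthesis genes it was 0.02 to 0.10 in mutants and -0.05 to 0.05 in wild type, and for the kinases -0.17 to 0.23 and -0.09 to 0.15, with overlap in both. Over all 34 genes the median deviation was 0.09, 0.05, 0.05, 0.10 and 0.19 on the mutant arrays in order of replicate, all higher than on any wild-type array (at most 0.03). Over all genes tested it was -0.02 to 0.05 in mutants, with mutant array 5 at the upper end. Mutant array 1 held the highest of the 10 values for 9 members and the lowest for 6. Wild-type array 1 held the lowest value for 11.

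**Figure D4:**
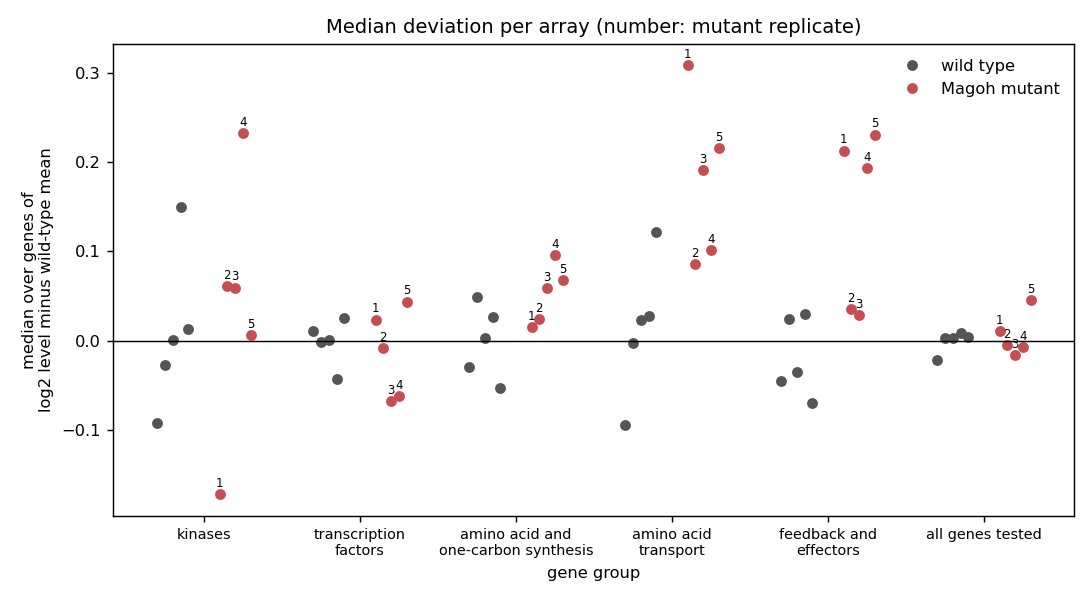
Median over the genes of a group of the log2 level minus the gene's wild-type mean (y axis), 1 point per array, for the 5 roles and for all genes (x axis); numbers are mutant replicates. The mutant points reach 0.31 for transport and 0.23 for feedback and effectors, while those for the kinases run from -0.17 to 0.23 around the wild types.

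Other genes of the pathway were examined as lists chosen for their function, also with earlier results of these data known. Of 36 measured further Atf4 targets, which include aminoacyl tRNA synthetases, 1 rose, 0 fell and 35 did not pass, with a median difference of 0.05. Among all genes 0.26% rose and 0.314% fell. Before adjustment (p under 0.05) 8 of the 36 were higher and 1 lower, against 4.57% and 4.68% of all genes. Of the 36 differences, 23 lay above 0. The gene that rose was Sesn2, a sestrin that restrains mTOR signalling under stress. It went from 7.53 ± 0.08 to 8.49 ± 0.18, a difference of 0.95 (limma adjusted p = 2.92e-05). Both means lay below 8.57, so the size is approximate. Sesn2 is also a p53 target. Of 30 p53 targets, Sesn2 among them, 11 rose and 0 fell in the same arrays, against 0.26% and 0.314% of all genes. Before adjustment 13 of the 30 were higher and 3 lower (p under 0.05). What raised Sesn2 was not tested. The branched-chain aminotransferase Bcat1 differed by 0.22 (limma adjusted p = 0.204) and the isoleucyl tRNA synthetase gene Iars by 0.21 (limma adjusted p = 0.207), each without overlap between the groups. Iars passed without mutant array 1 (limma adjusted p = 0.0465), which made the count of further Atf4 targets called 2, where 185 of all genes were called. The count was also 2, and the median 0.07, without mutant arrays 1 and 5, where 253 of all 20405 genes rose and 249 fell. Before adjustment 11 of the 36 were then higher and 1 lower, against 8.15% and 9.41% of all genes.

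Of 19 genes of the eIF2 machinery, 0 rose or fell (2 were higher at an unadjusted p under 0.05) and the median was 0.01. The median deviation was 0.13 to 0.14 on mutant arrays 2 to 4 and -0.03 and -0.02 on arrays 1 and 5, against -0.04 to 0.03 in wild type. Eif2a, an alternative initiation factor, differed by 0.19, Impact, an inhibitor of Gcn2, by 0.19, and Ppp1r15b, the constant counterpart of Ppp1r15a, by 0.11, with limma adjusted p of 0.435, 0.487 and 0.578. With the mean of its 2 probe sets, Ppp1r15b differed by only 0.0091 (limma adjusted p = 0.982). Without mutant arrays 1 and 5, Eif2a and Impact were called, where 253 of all 20405 genes rose and 249 fell. In that setting 8 of 19 were higher and 0 lower before adjustment (8.15% and 9.41% of all genes), and the median was 0.10. Of 25 other enzymes of serine, glycine, folate and related metabolism, 0 passed, with a median of -0.02. Before adjustment 2 of them were higher and 3 lower at p under 0.05, against 4.57% and 4.68% of all genes. The examples with the smallest p were Pck1, the cytosolic counterpart of Pck2, at -0.23, pyruvate carboxylase (Pcx) at -0.20 and Ahcy, which clears S-adenosylhomocysteine, at 0.17. Without mutant arrays 1 and 5 the median turned to 0.07, with 4 higher and 3 lower before adjustment (8.15% and 9.41% of all genes). The count called was then 1, Pcx, at -0.25, where 249 of all 20405 genes fell.

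Markers of other cells and signs of handling moved in part with the genotype, and their part in the rises of Atf4 and Asns was not tested. For comparison, 0.26% of all genes rose and 0.314% fell. Before adjustment, at p under 0.05, 4.57% of all genes were higher and 4.68% lower. Of 25 neuron genes 8 fell and 0 rose, and the mean level over the list was 6.95 to 7.35 on mutant and 7.38 to 7.59 on wild-type arrays, with 19 of 25 below 8.57 in both genotypes. Before adjustment 16 neuron genes were lower and 1 higher, and 4 differences lay above 0 (up to 0.25). Tubb3, a tubulin of young neurons, differed by -0.61, the dendrite gene Map2 by -0.53 and the glutamate transporter gene Slc17a6 by -0.97. Of 20 red cell genes 0 passed, while 12 were higher before adjustment (p under 0.05), and list means were 8.21 to 8.79 in mutants and 8.20 to 8.46 in wild type. Slc4a1, Gata1 and Slc25a37 differed by 0.44, 0.25 and 0.29. Of 20 endothelial genes 0 passed and 4 were higher before adjustment, with a median of 0.12 (Flt4 0.27, Flt1 0.20, Cdh5 0.20), and of 20 macrophage genes, all below 8.57 in both genotypes, 0 passed and 6 were lower before adjustment, with a median of -0.09 (Lyz2 -0.44, Csf1r -0.25, Ptprc -0.23). The 22 mesenchyme genes had a median of -0.09 (Lum -0.39, Col3a1 -0.30, Msx1 -0.24) and the 19 progenitor genes of -0.10 (Hes5 -0.28, Nes -0.28, Prom1 -0.23), with 0 called in each and 4 and 6 lower before adjustment. Before adjustment 1 mesenchyme gene and 0 progenitor genes were higher. Differences lay above 0 in 5 mesenchyme genes (up to 0.24) and 6 progenitor genes (up to 0.13). Immediate early genes, which respond to dissection, had 0 of 26 called, 1 higher and 2 lower before adjustment, and a median of -0.03 (Myc 0.30, Ier5 -0.21, Btg2 -0.16). The p53 targets Eda2r, Ccng1 and Cdkn1a rose by 2.35, 1.52 and 1.63, with Eda2r and Cdkn1a below 8.57 in both genotypes. More markers were called without mutant arrays 1 and 5: 12 neuron genes fell, 4 red cell genes rose, 5 progenitor genes fell and 1 rose, and 1 macrophage, 1 mesenchyme and 1 immediate early gene fell. In that setting 253 of all 20405 genes rose and 249 fell. The red cell median was then 0.27 and the neuron median -0.32.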

How the data were processed

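Total RNA (300 ng per array) from 10 embryonic cortices was measured on Affymetrix arrays. Per the submitters' processing notes, the deposited log2 values come from RMA in Affymetrix Expression Console, so background correction, scaling between arrays and probe set summary were done before deposit. Software versions: not given in the sources used here. RMA tends to compress differences. The deposited annotation named the probe sets through the RefSeq gene table of GRCm38.p6: 23322 by Entrez number and 465 by accession, giving 20405 genes. In a second deposited table, 10 columns of per-sample values matched no label and were not used. Their names carry 2 prefixes whose meaning is not stated, and no litter or batch could be tied to the arrays or tested.

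Mutant minus wild type was fitted on all 10 arrays with limma 3.58.1 (lmFit, eBayes) in R 4.3.3, with Benjamini-Hochberg adjustment over 20405 genes, and tested on simulated data. No filter was set on dim genes. P-values measure the spread between embryos, which may include such a batch. The 34 genes and the lists were chosen with earlier results of these data known, and all 34 are named. Pathway lists name called genes and the 3 smallest p, and marker lists the 3 smallest p. Arrays with the same replicate number correlated at -0.07 to 0.36 in their deviations from the genotype mean, which cannot exclude partial pairing. No label pairs the arrays, so replicate numbers are no block in the main fit. Alternatives covered normalization, dim genes, probe sets, variance model, array weights, a replicate block and leaving out arrays. The alternative without both mutant arrays 1 and 5 was added once the data had been seen.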

Additional observations from a re-analysis of the deposited data

Results flagged for a closer look

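Of 70 gene and genotype groups of 5 arrays examined (the 34 genes and Magoh), 2 held a single array far from its group, where chance gives about 1 in 20. Eif2ak1 read 9.33 on mutant array 4 and at most 9.13 on the other mutants. Atf3 read 7.04 on wild-type array 4 and at most 6.79 on the other wild types.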

How the results depend on the processing

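Asns was called in every alternative run, while the call of Atf4 was lost under quantile normalization (limma adjusted p = 0.0554) and with the replicate number as a block (limma adjusted p = 0.0591), which left 1 member called in each. The block changed no other member's call. With 1 array left out, 1 to 2 members rose, 0 fell, the members' median lay between 0.08 and 0.11, Magoh between -0.88 and -0.76, the further Atf4 targets called between 1 and 2, and all genes called between 64 and 185, against 117. All genes called numbered 408 with array weights, 42 without variance moderation, 224 at an adjusted p under 0.1 and 502 without mutant arrays 1 and 5. Called then were 2 of the eIF2 machinery, 2 further Atf4 targets (also 2 with array weights) and 1 of the other enzymes. Of the markers named, array weights called Hes5, Nes, Slc4a1, Gata1, Slc25a37, Lum and Msx1 (limma adjusted p from 0.00408 to 0.0481). The cause of these shifts was not tested. The sign of 9 uncalled members turned in at least 1 setting, to a size of at most 0.04: with 1 array left out, Eif2ak2 (-0.0076 to 0.22), Eif2ak3 (-0.10 to 0.0032), Nupr1 (-0.0325 to 0.0595), Psat1 (-0.0205 to 0.0837), Psph (-0.0465 to 0.0041), Shmt2 (-0.0147 to 0.14), Aldh1l2 (-0.14 to 0.0136) and Gpt2 (-0.035 to 0.0189), with the mean of probe sets Eif2ak3 (0.0347), with array weights Chac1 (-0.0093), and without mutant arrays 1 and 5 Eif2ak3 (0.0117), Nupr1 (-0.0081) and Chac1 (-0.0398). The number of arrays limits precision, and 20 of the 34 genes were dimmer than 8.57 in both genotypes.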
